A study of Mus musculus with 6 samples.

Results

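The 10 voltage-gated calcium channel genes described here were chosen by name: the pore-forming Cacna1a, Cacna1b, Cacna1c, Cacna1d, Cacna1e, Cacna1g, Cacna1h and Cacna1i, and the alpha2delta genes Cacna2d1 and Cacna2d3. They hold 96 of the 115220 transcripts listed and are 10 of 47729 genes. All 10 gene totals, added up from the FPKM of a gene's transcripts (read fragments relative to both transcript length and sequencing depth), reached a mean of 1 FPKM over the libraries and were tested, as were 12874 gene totals in all. Of the 96 transcripts, 23 reached that mean, against 21584 in all.

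Voltage-gated calcium channels open when a neuron depolarises and let calcium ions in, which drives transmitter release at terminals, dendritic signalling and pacemaking. Each channel has a pore-forming alpha1 subunit that sets its type. The Cav1 genes encode L-type channels, which couple activity to gene expression, the Cav2 genes encode the P/Q-, N- and R-type channels of nerve terminals and dendrites, and the Cav3 genes encode T-type channels that open near rest and support burst firing. Auxiliary alpha2delta subunits raise the number of channels at the membrane, and beta subunits bind Cav1 and Cav2 pores inside the cell.

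RNA bound to tagged ribosomes was taken by RiboTag immunoprecipitation from the medial prefrontal cortex (mPFC) of adult male mice on a C57BL/6 background. All animals were D2Cre/LSL-Flag-Cas9/RiboTag, so that Cre from a bacterial artificial chromosome transgene driven by the dopamine D2 receptor gene switched on both Cas9 and a hemagglutinin-tagged ribosomal protein Rpl22. The Ctrl group received AAV GFP and the Gsk3sKO group AAV Gsk3sgRNA/GFP, which carries a guide against Gsk3b, the gene of the kinase GSK3β, and the mPFC was dissected 3 weeks later. Each group had 3 libraries, and the sources do not say whether a library is 1 mouse or a pool, so p-values measure the spread between these libraries. Both groups carried the Cas9 and RiboTag alleles. The comparison asks which ribosome-bound RNAs differ in level after Gsk3b is targeted in these neurons.

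The total of Gsk3b itself was 35.6, 53.8 and 56.5 FPKM in Ctrl replicates 1 to 3, against 36.9, 37.0 and 33.6 FPKM in Gsk3sKO replicates 1 to 3, so the groups overlapped through Ctrl replicate 1 (log2 fold change of FPKM + 1, the scale used throughout, -0.40, SE 0.19, limma adjusted p = 0.773). Here limma is a linear model that draws each gene's spread towards that of genes of like level, its p-values were adjusted over all gene totals tested, and a gene was called at an unadjusted limma p under 0.05. Gsk3b was not called with all libraries and was called without Ctrl replicate 1, with a log2 fold change of -0.61. Its main transcript, ENSMUST00000023507, did not overlap between the groups, at 33.5, 34.7 and 36.2 FPKM in Ctrl and 24.8, 21.6 and 21.2 FPKM in Gsk3sKO (log2 fold change -0.61, SE 0.14, limma adjusted p = 0.619 over all transcripts), and was called. Its other main transcript, ENSMUST00000114750, overlapped, at 1.85, 18.7 and 20.03 FPKM in Ctrl and 11.9, 15.4 and 12.5 FPKM in Gsk3sKO (log2 fold change 0.42, SE 0.78, limma adjusted p = 0.949), with the lowest value in Ctrl replicate 1. FPKM counts edited and unedited Gsk3b RNA alike. Depth, estimated from the spacing of low values and only approximate, ranged from about 23550000 to 45100000 fragments per library. Among all gene totals, 844 had an unadjusted limma p under 0.05, 175 higher and 669 lower in Gsk3sKO, and 6 an adjusted p under 0.05. When libraries were instead rescaled to the median ratio over genes, the split was 254 higher and 549 lower, so the share of calls that were higher went from 20.7% to 31.6%, and the median log2 fold change of all genes from -0.06 to -0.02. The 4 D2 neuron markers summed to between 98.5 and 318 FPKM in Ctrl and 146 and 293 FPKM in Gsk3sKO, with Drd2 itself lowest in Ctrl replicate 1, at 1.58 FPKM, and highest in Ctrl replicate 3, at 14.1 FPKM, and Adora2a listed at 0 in Ctrl replicate 1. The 6 inhibitory neuron markers summed to between 935 and 1318 FPKM over the libraries. The 5 excitatory neuron markers summed to between 835 and 1033 FPKM. Whether this neuronal signal came from D2 neurons or from other neurons was not tested. Markers of glia were also present, the 6 astrocyte markers at between 82.0 and 104 FPKM and the 6 oligodendrocyte markers at between 118 and 183 FPKM. In such bulk libraries fewer cells of a type and less RNA per cell cannot be told apart.

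Several of the channel genes have transcripts that differ by a short coding exon, and these exons are shown because the deposited FPKM values moved between them from library to library. Sequences are from GENCODE M21 transcripts of GRCm38, the build of all positions given, on the strand of the gene. The mutually exclusive exons of Cacna1c, both exon 30 of 47 in their transcript and on the minus strand, lie at chr6:118638427-118638510 (exon A) and chr6:118637730-118637813 (exon B). They are both 84 bases long and code for a membrane segment of the fourth repeat of the L-type pore. Capitals mark the 35 bases at which they differ.
Cacna1c exon A: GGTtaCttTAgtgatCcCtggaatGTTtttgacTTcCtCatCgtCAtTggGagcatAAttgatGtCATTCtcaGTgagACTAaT
Cacna1c exon B: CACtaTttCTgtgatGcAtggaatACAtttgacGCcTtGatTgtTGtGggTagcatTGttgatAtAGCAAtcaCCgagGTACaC

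In the next 3 sequences capitals mark an optional exon and lower case the 20 bases on either side. The Cacna2d1 exon (plus strand, chr5:16341990-16342010) has 21 bases, and the Cacna1b exons (minus strand, chr2:24656711-24656722 and chr2:24642853-24642858) have 12 and 6 bases. All 3 lengths are whole numbers of codons.
Cacna2d1 exon 23 of 39: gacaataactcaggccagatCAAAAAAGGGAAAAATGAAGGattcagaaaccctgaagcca
Cacna1b exon 25 of 47: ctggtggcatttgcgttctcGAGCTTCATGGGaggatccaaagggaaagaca
Cacna1b exon 32 of 47: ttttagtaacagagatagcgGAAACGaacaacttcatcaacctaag

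The last sequence shows a pair of Cacna1h transcripts that cannot be separated by their bases. ENSMUST00000078496 has 8220 bases and ENSMUST00000159610 has 8230, and they are identical over all shared bases. The annotation places 1 intron 4 bases apart in them, at a point where the letters at both ends of the intron are the same (the window spans the junction, minus strand, chr17:25378841-25380239), and the longer has 10 more bases at its 3′ end. Capitals mark the 4 bases that belong to the exon on one side of the intron in 1 transcript and on the other side in the other.
Cacna1h junction: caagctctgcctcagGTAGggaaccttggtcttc

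In level per length, Cacna2d1 led the 10 genes with a mean of 65.9 FPKM over the 6 libraries, followed by Cacna1e at 52.6 FPKM. Cacna2d3 at 27.4 FPKM, Cacna1a at 25.4 FPKM and Cacna1b at 23.8 FPKM formed a middle group. Cacna1c stood at 12.2 FPKM, Cacna1g at 7.83 FPKM, Cacna1i at 6.86 FPKM, Cacna1d at 4.94 FPKM and Cacna1h at 4.44 FPKM. Of the 9 neighbouring pairs in this order, 3 were ordered alike in 6 of 6 libraries: Cacna2d1 above Cacna1e, Cacna1e above Cacna2d3, and Cacna1b above Cacna1c. For these an exact sign-flip test over the libraries gave p = 0.03125, the smallest it can give, and 0.09375 after adjustment over the 9 pairs. The other 6 neighbouring pairs were not ordered alike in every library, with exact sign-flip p-values from 0.0625 to 0.5625, which do not show equal levels. By the transcript of highest mean FPKM alone, of these 3 pairs Cacna1e was above Cacna2d3 in 6 of 6 libraries, Cacna2d1 was above Cacna1e in 5 of 6, and Cacna1b lay below Cacna1c by the mean, at 5.85 against 6.26 FPKM, with 3 of 6 libraries each way.

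**Figure D1:**
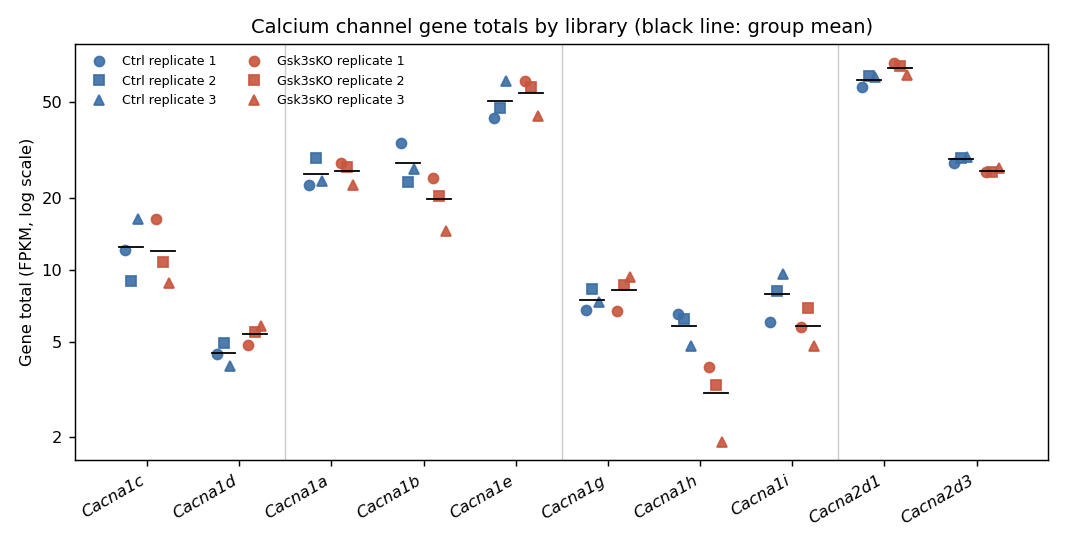
Gene totals in FPKM (log axis) of the 8 pore-forming and 2 alpha2delta genes, 1 symbol per library, blue for Ctrl and red for Gsk3sKO, with a black line at each group mean and grey lines between the Cav1, Cav2, Cav3 and alpha2delta genes. The groups separate for Cacna1h and Cacna2d3, lower in Gsk3sKO, and for Cacna2d1, higher, and overlap for the other 7 genes.

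Between the groups, 1 of the 10 gene totals had an unadjusted limma p under 0.05, Cacna1h, which was lower in Gsk3sKO. Among all gene totals tested 6.56% were called, 5.2% lower and 1.36% higher. None of the 10 had an adjusted p under 0.05, against 0.0466% of all genes. Libraries did not overlap between the groups for 3 of the 10 genes, against 12% of all genes: 1 had every Gsk3sKO library above every Ctrl library, against 3.71%, and 2 had every one below, against 8.3%. The median log2 fold change of the 10 was -0.01, beside -0.06 for all genes. Their standard errors had a median of 0.20, beside 0.25 for all genes.

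**Figure D2:**
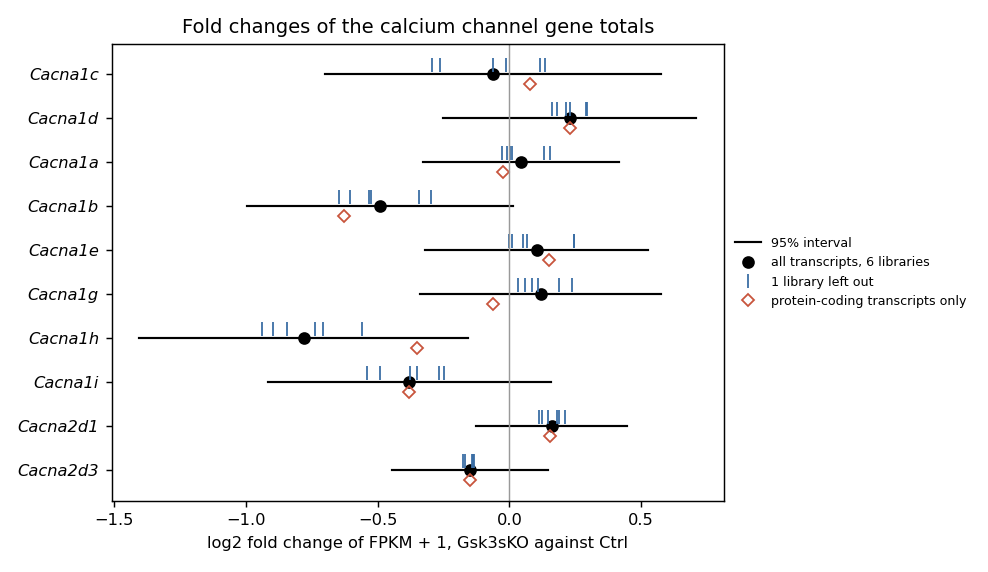
Log2 fold changes of FPKM + 1 of the 10 gene totals, Gsk3sKO against Ctrl, with 95% intervals from limma (black), the values with 1 library left out (blue ticks) and the values from protein-coding transcripts alone (red diamonds). The interval of Cacna1h, from -1.40 to -0.16, is the one that leaves out 0, and its value from protein-coding transcripts alone is -0.35.

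The Cav2 genes carried most of the pore-forming FPKM, 73.1% ± 0.47 in Ctrl libraries and 74.3% ± 1.41 in Gsk3sKO libraries (SD, n = 3 each). Cacna1e (ENSMUSG00000004110, chr1:154390731-154884501, minus strand), the R-type pore, measured 43.2, 47.6 and 61.4 FPKM in Ctrl replicates 1 to 3, and 61.5, 57.97 and 44.1 FPKM in Gsk3sKO replicates 1 to 3. Both groups covered almost the same range (log2 fold change 0.10, SE 0.19, limma adjusted p = 0.938).

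Cacna1a (ENSMUSG00000034656, chr8:84388440-84640246, plus strand), the P/Q-type pore and the main trigger of fast transmitter release at many synapses, stood at 22.5, 29.2 and 23.5 FPKM in Ctrl and 27.8, 26.9 and 22.7 FPKM in Gsk3sKO. Again the groups overlapped fully, with a log2 fold change of 0.04 and a 95% interval from -0.33 to 0.41. Cacna1b (ENSMUSG00000004113, chr2:24603887-24763152, minus strand), the N-type pore, stood at 34.0, 23.4 and 26.2 FPKM in Ctrl and 24.1, 20.4 and 14.5 FPKM in Gsk3sKO. Gsk3sKO replicate 1 lay above Ctrl replicate 2, and the other 2 Gsk3sKO libraries lay below all of Ctrl. Its log2 fold change of -0.49 (SE 0.22) had a limma adjusted p of 0.766 and was not called. Without Ctrl replicate 2 (log2 fold change -0.61) or without Gsk3sKO replicate 1 (-0.65) it was called, and so it was over protein-coding transcripts alone, an alternative chosen after the values were seen, with a log2 fold change of -0.63 and an adjusted p of 0.854. Without Gsk3sKO replicate 3 the log2 fold change was -0.30 and without Ctrl replicate 1 it was -0.35, and in neither was it called.

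Among the L-type genes, Cacna1c (ENSMUSG00000051331, chr6:118587240-119196418, minus strand) stood at 12.1, 8.94 and 16.3 FPKM in Ctrl and 16.3, 10.7 and 8.79 FPKM in Gsk3sKO. Its libraries differed by nearly the same amount within each group, and the log2 fold change was -0.06 (SE 0.28, limma adjusted p = 0.976). Cacna1d (ENSMUSG00000015968, chr14:30039939-30491455, minus strand), whose channels open at lower voltages than those of Cacna1c, stood at 4.46, 4.96 and 3.98 FPKM in Ctrl and 4.87, 5.51 and 5.83 FPKM in Gsk3sKO. The groups overlapped where Ctrl replicate 2 lay just above Gsk3sKO replicate 1, and the log2 fold change was 0.23 (SE 0.21, limma adjusted p = 0.872).

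Cacna1h (ENSMUSG00000024112, chr17:25374285-25433783, minus strand), a T-type pore gene, measured 6.51, 6.22 and 4.79 FPKM in Ctrl and 3.93, 3.31 and 1.92 FPKM in Gsk3sKO. Every Gsk3sKO library was below every Ctrl library, with means of 3.05 ± 1.03 FPKM and 5.84 ± 0.92 FPKM (SD, n = 3 each). Its log2 fold change was -0.78 (SE 0.27, 95% interval -1.40 to -0.16, limma adjusted p = 0.688), and an exact permutation test gave 0.1, the smallest p that 3 against 3 libraries allow. The call was lost without Ctrl replicate 1 (log2 fold change -0.71), Ctrl replicate 2 (-0.74) or Gsk3sKO replicate 3 (-0.56), while the direction stayed.

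The groups separated in the Cacna1h transcripts other than the full-length pair and overlapped in that pair. The pair of full-length transcripts with indistinguishable bases, added up, gave 2.63, 4.35 and 3.68 FPKM in Ctrl and 3.58, 3.05 and 1.76 FPKM in Gsk3sKO, and the groups overlapped (exact permutation p = 0.4, n = 3 and 3). All other Cacna1h transcripts together gave 3.88, 1.86 and 1.11 FPKM in Ctrl and 0.35, 0.26 and 0.16 FPKM in Gsk3sKO, without overlap (exact permutation p = 0.1, the smallest possible). In Ctrl replicate 1 most of this was ENSMUST00000161658, a transcript that the annotation marks for nonsense-mediated decay, at 3.78 FPKM there and listed at 0 in the other 5 libraries. Each of these other transcripts had a mean under 1 FPKM over the libraries and was not tested alone. The division into the pair and the rest was made after the values were seen and for no other gene. Of all gene totals 12% did not overlap. Over protein-coding transcripts alone, the alternative chosen after the values were seen, the Cacna1h total overlapped between the groups, with a log2 fold change of -0.35 (SE 0.31, limma adjusted p = 0.884), and was not called.

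Oligodendrocyte markers also differed: Mog, Mag and Cnp, 3 of the 6 on the list, had every Gsk3sKO library below every Ctrl library, with Mog listed at 0 in Gsk3sKO replicates 2 and 3, while the summed level ranged from 118 to 183 FPKM in Ctrl and from 128 to 165 FPKM in Gsk3sKO. Of the 5 microglial markers C1qa was lower in the same way, with sums from 12.1 to 17.6 FPKM in Ctrl and 10.4 to 14.9 FPKM in Gsk3sKO. Their part in the Cacna1h result was not tested.

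The other T-type genes were not called. Cacna1i (ENSMUSG00000022416, chr15:80287238-80398279, plus strand) stood at 6.02, 8.15 and 9.57 FPKM in Ctrl and 5.74, 6.89 and 4.79 FPKM in Gsk3sKO, overlapping through Ctrl replicate 1 (log2 fold change -0.38, SE 0.23, limma adjusted p = 0.809). Cacna1g (ENSMUSG00000020866, chr11:94408391-94474198, minus strand) stood at 6.76, 8.28 and 7.30 FPKM in Ctrl and 6.74, 8.59 and 9.31 FPKM in Gsk3sKO, with the Ctrl values inside the Gsk3sKO range (log2 fold change 0.12, SE 0.20, limma adjusted p = 0.935). Added up, the Cav3 genes took 14.98% ± 1.38 of the pore-forming FPKM in Ctrl and 12.9% ± 1.78 in Gsk3sKO (SD, n = 3 each).

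Both alpha2delta genes had groups that did not overlap, in opposite directions and by little. Cacna2d1 (ENSMUSG00000040118, chr5:15934691-16374511, plus strand), whose protein binds gabapentin, stood at 58.02, 64.7 and 63.8 FPKM in Ctrl and 73.1, 70.8 and 64.8 FPKM in Gsk3sKO. The nearest values, Ctrl replicate 2 and Gsk3sKO replicate 3, were almost equal, and the log2 fold change was 0.16 (SE 0.12, limma adjusted p = 0.857). Cacna2d3 (ENSMUSG00000021991, chr14:28904943-29721864, minus strand) stood at 27.8, 29.3 and 29.6 FPKM in Ctrl and 25.6, 25.5 and 26.7 FPKM in Gsk3sKO. Its SDs of 0.95 and 0.63 FPKM were the smallest of the 10 genes relative to the level, and it had a log2 fold change of -0.15 (SE 0.13, limma adjusted p = 0.866). An ordinary linear model, which uses this gene's own spread, called it, with an adjusted p of 0.865, where limma made no call. Exact permutation gave p = 0.1 for both genes, the smallest possible.

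As shares of the summed FPKM of the 8 pore-forming genes, which do not depend on how libraries are scaled, 2 genes had groups that did not overlap. Cacna1b took 25.0%, 17.1% and 17.1% in Ctrl and 16.0%, 14.5% and 12.98% in Gsk3sKO. Cacna1h took 4.80%, 4.55% and 3.13% in Ctrl and 2.60%, 2.36% and 1.71% in Gsk3sKO. Each had an exact permutation p of 0.1, the smallest possible with 3 against 3, so neither could pass 0.05. Such shares exist for these 8 genes alone, and of all gene totals in FPKM 12% did not overlap. The shares of a library add up to 100%, so they depend on each other. By the leading transcripts alone the separation was lost. The largest share was that of Cacna1e, 35.6% ± 4.16 in Ctrl and 40.5% ± 0.99 in Gsk3sKO (SD, n = 3 each), with overlap (exact permutation p = 0.2). Summed, the pore-forming genes gave 142 ± 9.80 FPKM in Ctrl and 134 ± 20.2 FPKM in Gsk3sKO (SD, n = 3 each).

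**Figure D3:**
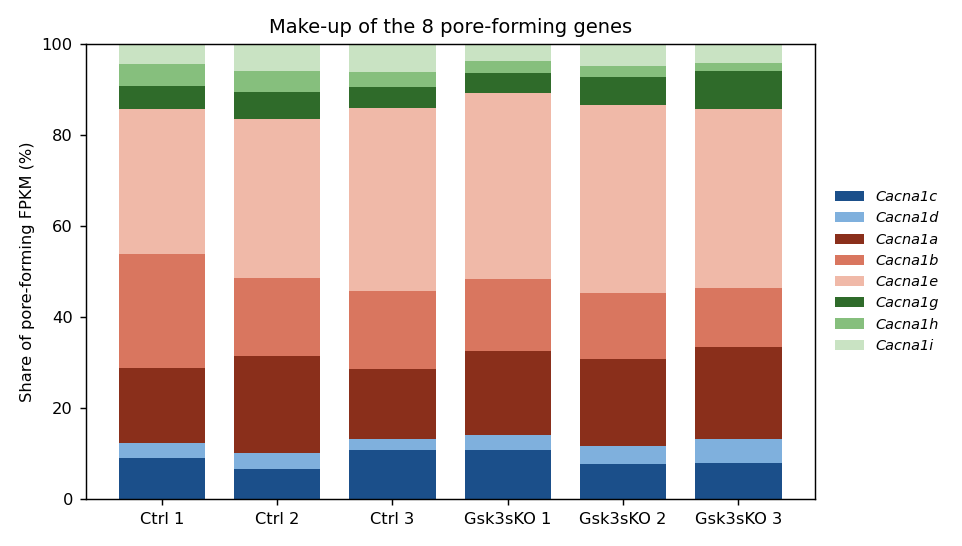
Share of the summed FPKM of the 8 pore-forming genes held by each, 1 stacked bar per library (blue, Cav1; red, Cav2; green, Cav3). Cacna1b falls between 17.1% and 25.0% in the Ctrl bars and between 12.98% and 16.0% in the Gsk3sKO bars.

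At the level of single transcripts, 0 of the 23 tested channel transcripts had an unadjusted limma p under 0.05, against 5.56% of all transcripts (1.81% higher and 3.75% lower). The lowest limma adjusted p among them was 0.842. The other settings gave 0 to 2 such transcripts, and an ordinary linear model gave 1. In 1 of the 23 every Gsk3sKO library was above every Ctrl library, and in 2 every one was below, against 4.28% and 6.96% of all transcripts, 11.2% in all. The 1 above, ENSMUST00000200270 of Cacna2d1, had means of 0.82 FPKM in Ctrl and 1.75 FPKM in Gsk3sKO. Those below were ENSMUST00000022567 of Cacna2d3 and ENSMUST00000078496 of Cacna1h, the latter with means of 2.56 and 0 FPKM. ENSMUST00000200270 and ENSMUST00000078496 passed the filter of 1 FPKM only through the group where they were high, so their separation is no support. The size of the transcripts' log2 fold changes had a median of 0.57 with a median SE of 0.69, while the gene totals had medians of 0.15 and 0.20.

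The transcript with the highest FPKM was not the same in all libraries for 7 of the 10 genes. Cacna1b had 4 different leading transcripts over 6 libraries, Cacna1c and Cacna1h had 3, and Cacna1a, Cacna1g, Cacna1i and Cacna2d1 had 2. ENSMUST00000121390 held 85.1%, 61.1% and 59.9% of the Cacna1a total in Ctrl, 75.5% and 85.3% in Gsk3sKO replicates 1 and 2, and 0% in Gsk3sKO replicate 3. Cacna1d (ENSMUST00000112249, at least 99.6% everywhere), Cacna1e (ENSMUST00000187541, 84.0% to 92.1%) and Cacna2d3, with 1 listed transcript (ENSMUST00000022567), kept the same leader.

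The Cacna1h leader, ENSMUST00000159610, held 38.7%, 5.18% and 3.06% of the total in Ctrl and 91.2%, 92.1% and 91.7% in Gsk3sKO (exact permutation p = 0.1, the smallest possible). It leads by the mean over the 6 libraries through its Gsk3sKO values, at a mean of 2.79 FPKM against 0.99 FPKM in Ctrl. That choice favours a separation of the groups, so the test of this share lends it no weight. In Ctrl replicates 2 and 3 the main transcript was instead ENSMUST00000078496, the one that shares all its bases with ENSMUST00000159610 across the junction printed above, and in Ctrl replicate 1 it was ENSMUST00000161658. Added up, the pair with the same bases held 40.4%, 70.0% and 76.8% of the total in Ctrl and 91.2%, 92.1% and 91.7% in Gsk3sKO, still without overlap (exact permutation p = 0.1). For Cacna1i the leader ENSMUST00000160424 held 95.6%, 93.0% and 45.2% in Ctrl and 99.4%, 100% and 99.5% in Gsk3sKO, a difference that came mainly from Ctrl replicate 3. Shares of leading transcripts were computed for the channel genes alone, so how often they separate among all genes is not known.

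**Figure D4:**
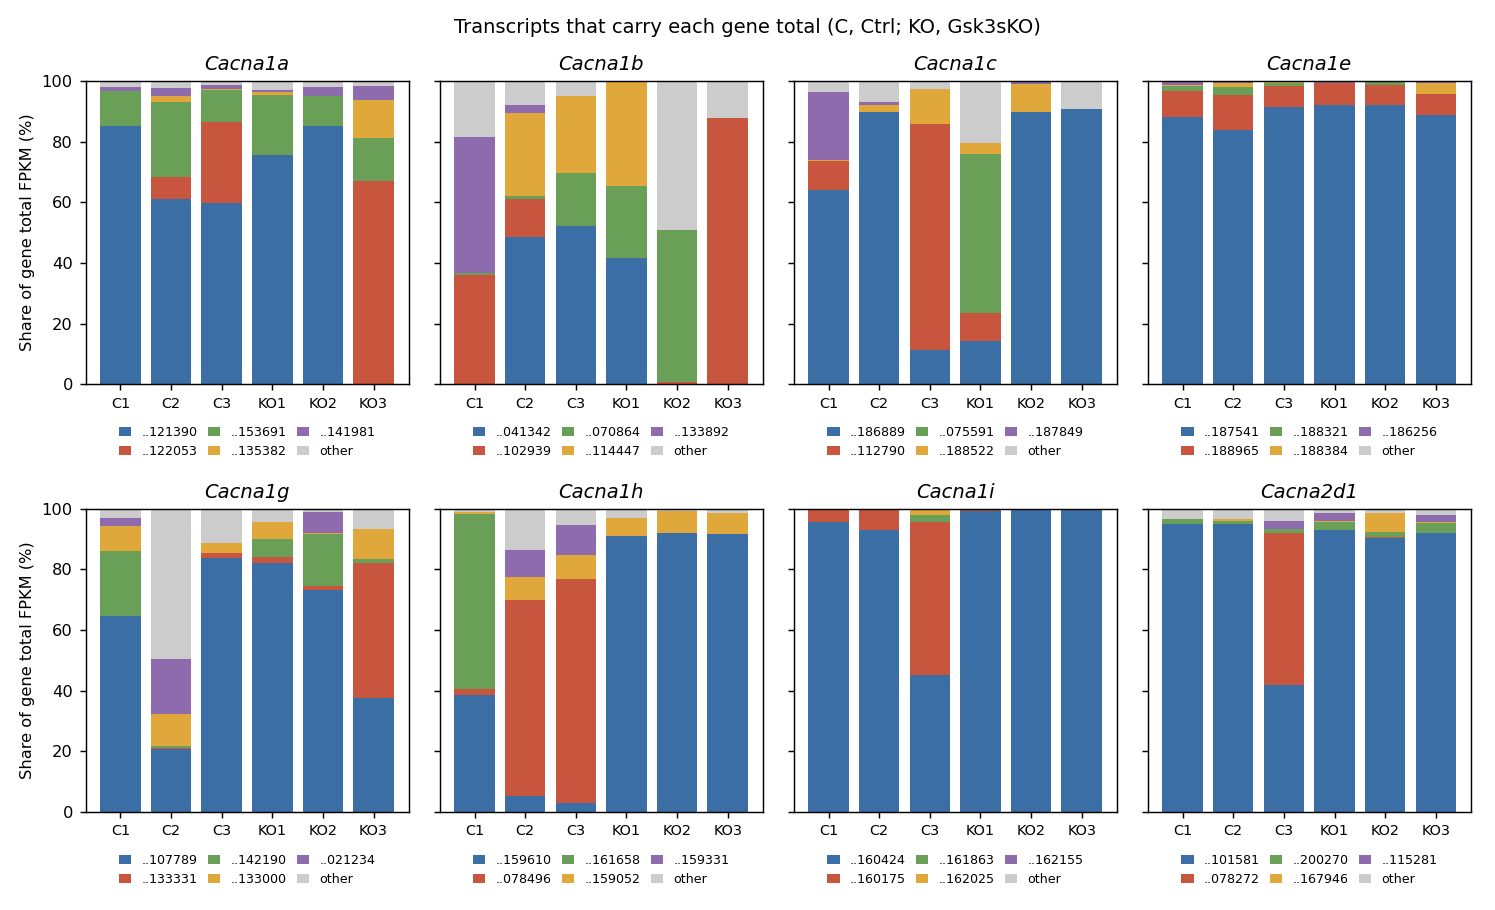
Share of each gene total held by its 5 transcripts of highest mean share and by all others (grey), 1 stacked bar per library (C, Ctrl; KO, Gsk3sKO; legends give the last 6 digits of the transcript identifier). The leading transcript changes between libraries of the same group for Cacna1a, Cacna1b, Cacna1c, Cacna1g, Cacna1h, Cacna1i and Cacna2d1, while that of Cacna1e holds at least 84.0% in each.

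For each optional exon printed above, the range within at least 1 group was wider than the difference between the group means. Transcripts with exon A of Cacna1c held 64.5%, 94.6% and 11.3% of its FPKM in Ctrl and 82.9%, 89.7% and 97.8% in Gsk3sKO. Those with exon B held 10.04%, 6.95% and 86.2% in Ctrl and 17.0%, 9.36% and 6.99% in Gsk3sKO. Ctrl replicate 3 was thus the single library in which exon B prevailed, and the groups overlapped for both exons (exact permutation p = 0.3 and 0.7).

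The same library stood apart for Cacna2d1. Transcripts with its 21-base exon held 95.6%, 97.6% and 45.7% in Ctrl and 96.4%, 90.8% and 95.4% in Gsk3sKO (exact permutation p = 0.9). For Cacna1b the 12-base exon was in transcripts holding 5.86%, 76.3% and 77.3% in Ctrl and 76.3%, 14.1% and 4.56% in Gsk3sKO, so that each group had libraries at both ends. The 6-base exon was in 36.5%, 13.3% and 17.6% in Ctrl and 23.5%, 50.8% and 88.0% in Gsk3sKO (exact permutation p = 0.2). These percentages follow from how the assembler divided reads among near-identical transcripts and were not read from junctions.

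Of the other subunits of the family, 10 of 16 were tested and 1 was called, higher in Gsk3sKO. Of all genes 6.56% were called, 1.36% higher. The cytoplasmic beta subunits, which Cav1 and Cav2 pores need to reach the membrane, were all present at more than 15 FPKM in every library. Cacnb1 stood at 61.7, 52.8 and 71.9 FPKM in Ctrl and 70.5, 53.3 and 41.2 FPKM in Gsk3sKO. Cacnb2 stood at 20.8, 25.5 and 30.7 FPKM in Ctrl and 26.8, 15.2 and 19.98 FPKM in Gsk3sKO. Cacnb3, the most abundant, stood at 74.6, 83.9 and 84.9 FPKM in Ctrl and 83.02, 77.3 and 49.5 FPKM in Gsk3sKO. All 3 overlapped, with log2 fold changes of -0.20, -0.32 and -0.24 and limma adjusted p-values of 0.898, 0.845 and 0.861. The values of Cacnb1 and Cacnb3 rested on Gsk3sKO replicate 3, without which they were -0.0080 and -0.016, and that of Cacnb2 was -0.13 without Gsk3sKO replicate 2. Cacnb4 stood at 36.9, 38.3 and 59.8 FPKM in Ctrl and 61.5, 48.2 and 55.8 FPKM in Gsk3sKO, with 2 Ctrl libraries below all of Gsk3sKO and Ctrl replicate 3 among them. Its log2 fold change was 0.32 (SE 0.20, limma adjusted p = 0.816) and was not called, and without Ctrl replicate 3 it was 0.53 and was called. Over protein-coding transcripts alone, the alternative chosen after the values were seen, Cacnb2 and Cacnb4 were called. Cacnb2 had a log2 fold change of -1.40 and Cacnb4 one of 0.72 (limma adjusted p = 0.854 for each). Under that alternative 617 gene totals were called in all, and their share of those tested was not computed.

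Cacng2, or stargazin, a gamma-family protein that carries AMPA receptors to synapses, was the called gene. It stood at 13.03, 12.1 and 12.3 FPKM in Ctrl and 14.99, 17.8 and 19.9 FPKM in Gsk3sKO, without overlap. Of all genes 12% did not overlap, 3.71% with every Gsk3sKO library above. The log2 fold change was 0.45 (SE 0.17, limma adjusted p = 0.708). Leaving out Ctrl replicate 2, Ctrl replicate 3, Gsk3sKO replicate 2 or Gsk3sKO replicate 3 ended the call, with log2 fold changes from 0.36 to 0.44. The other tested gamma genes, Cacng3, Cacng4, Cacng7 and Cacng8, overlapped between the groups, with log2 fold changes from -0.38 to -0.05, and so did Cacna2d2, at 0.15. Genes known from muscle and retina were at or near 0: Cacna1s reached at most 0.25 FPKM, and Cacna1f and Cacng1 were listed at 0 in all 6 libraries.

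**Figure D5:**
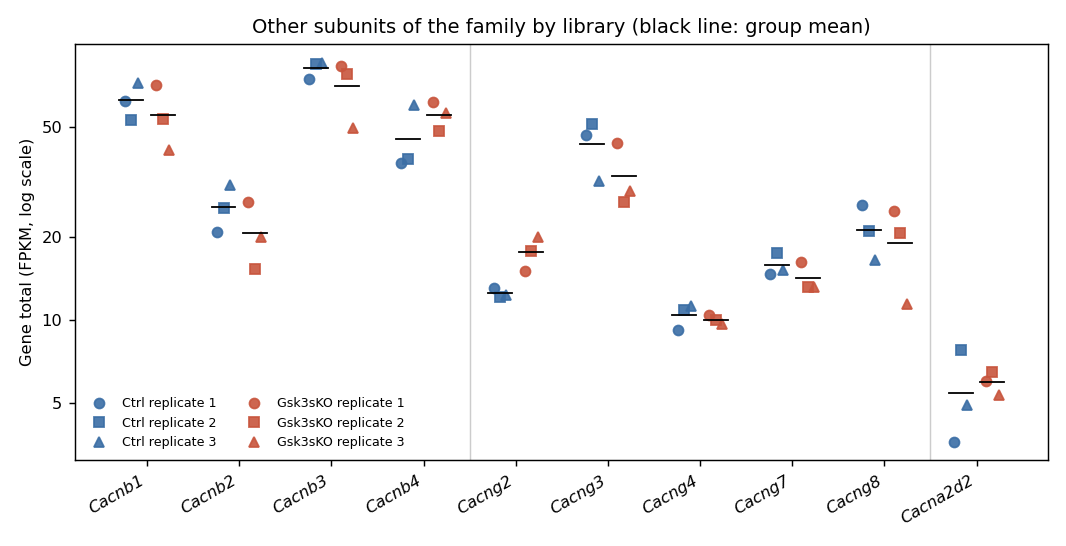
Gene totals in FPKM (log axis) of the 4 beta subunit genes, the 5 tested gamma genes and Cacna2d2, 1 symbol per library, blue for Ctrl and red for Gsk3sKO, with a black line at each group mean. Cacng2 is the one gene whose groups do not overlap, at 12.1 to 13.03 FPKM in Ctrl and 14.99 to 19.9 FPKM in Gsk3sKO.

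Proteins that tether or regulate the channels and handle the calcium that enters were read from a list of 36 genes, of which 31 were tested. None of the 16 tested partners (among them active-zone proteins, calmodulins and G protein subunits) was called by limma at an unadjusted p under 0.05, and their log2 fold changes ran from -0.23 to 0.23. An ordinary linear model called 0 of all 31. Of the 15 tested pumps, exchangers, store channels and calcium-binding proteins 1 was called, lower in Gsk3sKO. Of all genes 6.56% were called, 5.2% lower. The called gene was Calb1, the calcium buffer calbindin, at 126, 69.4 and 63.3 FPKM in Ctrl and 55.9, 41.6 and 59.6 FPKM in Gsk3sKO. Ctrl replicate 1 stood far above the other 5 libraries, and the log2 fold change was -0.66 (SE 0.27, limma adjusted p = 0.750) with it and -0.35, no longer called, without it. Leaving out Gsk3sKO replicate 1 (log2 fold change -0.71) or Gsk3sKO replicate 2 (-0.50) also ended the call, as did rescaling (-0.61), testing without a filter, and the ordinary linear model.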

How the data were processed

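Ribosome-associated RNA of 3 Ctrl and 3 Gsk3sKO libraries was sequenced from a stranded total RNA kit, and groups and replicate numbers were taken from the submitters' labels. The authors deposited FPKM values per transcript and library, made, per the submitters' processing notes, with HISAT2 2.1.0, SAMtools 1.9 and StringTie 1.3.4d on GRCm38. Their settings were not given in the sources used here. StringTie divides reads between overlapping transcripts by estimate, so transcript values of a gene can trade against each other. The authors' deposited fold, p-value and q-value columns hold their own comparison and were not used. All 6 columns of library values were used, and 0 were left out.

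Transcripts were matched to GENCODE M21 (114237 matched, 983 not) and summed by gene identifier. Features with a mean of at least 1 FPKM were tested on log2(FPKM + 1), which understates changes of low genes, with limma 3.58.1 in R 4.3.3 (trended variances, Benjamini-Hochberg over all features tested). A call is an unadjusted p under 0.05, and the adjusted p is given beside it. All tests are two-sided. Shares and exact tests were computed in Python 3.11.15 with scipy 1.17.1. In data simulated on these 12874 gene totals, 200 genes were changed by 1 on the log2 scale. Of these 83.5% had p under 0.05 and 6.5% passed adjustment. Of 200 transcripts changed by as much among the 21584 tested, 55.0% had p under 0.05 and 0.0% passed adjustment. The simulated spread was normal and independent between features, while real transcripts of a gene can trade against each other. Smaller changes were not simulated. Intervals cover the spread between libraries only.

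The channel genes and all gene lists were chosen with earlier results of these data known. Genes named are the 10 channel genes, each one's transcript of highest mean, the beta subunits, Gsk3b and, of the other lists, every gene total with p under 0.05; the remaining gamma genes, Cacna2d2, genes at or near 0, marker genes and the other transcripts were named after their values were seen. Alternatives were another pseudocount (0.1), filters (none, 5 FPKM), rescaling to the median ratio, an ordinary linear model, a replicate block, leaving out each library, and, added after the values were seen, protein-coding transcripts alone.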

Additional observations from a re-analysis of the deposited data

How the results depend on the processing

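The number of gene totals called stayed within 1.5 times of 844 under every alternative, from 574 to 1175 with 1 library left out. The number of transcripts called went from 1200 to 1917 without a filter and 590 at a mean of 5 FPKM. Of the 10 channel genes, 1 was called as reported, 0 at a mean of 5 FPKM, where Cacna1h was not tested, 2 by the ordinary linear model (Cacna1h and Cacna2d3), and 0 to 2 with 1 library left out. Of the channel transcripts, 0 were called as reported, 1 with a pseudocount of 0.1, 2 without a filter, 1 by the ordinary linear model, and 0 to 2 with 1 library left out. Of the other channel subunits 3 were called over protein-coding transcripts alone, where 617 gene totals were called in all, and 0 to 2 with 1 library left out. Of the partners and calcium-handling genes 2 were called without a filter, 0 by the ordinary linear model and 0 to 2 with 1 library left out. Without Ctrl replicate 1 Gsk3b was called, and its log2 fold change ranged from -0.61 to -0.28 over the libraries left out. Of the shares of pore-forming FPKM, 2 genes had separate groups as reported, 0 by the leading transcripts alone and 3 to 4 with 1 library left out. Of the shares of leading transcripts, 2 separated as reported and 2 to 4 with 1 library left out. The 2 were those of Cacna1h, whose leader was chosen through its Gsk3sKO values, and Cacna1i. Where an alternative removes features, fewer were tested. With 1 library left out smaller groups are compared, and smaller groups more readily fail to overlap. The higher counts of separate shares there are therefore no mark of robustness. For the other changes the cause was not tested.

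Directions turned for some gene totals and leading transcripts. Over protein-coding transcripts alone the log2 fold changes of the totals were -0.026 for Cacna1a, 0.078 for Cacna1c and -0.064 for Cacna1g. With 1 library left out they ran from -0.026 to 0.15 for Cacna1a, from -0.29 to 0.14 for Cacna1c and from -0.0023 to 0.25 for Cacna1e. Among leading transcripts the range was -0.051 to 0.64 for ENSMUST00000107789 of Cacna1g, -1.93 to 0.36 for ENSMUST00000121390 of Cacna1a (-1.15 with all libraries, 0.36 without Gsk3sKO replicate 3), -0.18 to 0.17 for ENSMUST00000160424 of Cacna1i (0.033 after rescaling) and -0.38 to 0.68 for ENSMUST00000186889 of Cacna1c.

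The labels do not say whether libraries of equal replicate number were processed together. Same-numbered deviations from the group means correlated at -0.027, -0.011 and -0.081 over 12874 genes. These values show no strong shared spread but cannot exclude joint processing. With the replicate number as a block, 821 gene totals and 1103 transcripts were called, 2 channel genes (Cacna1b and Cacna1h), 0 of the other channel subunits, where the call of Cacng2 was lost, and 1 of the partners and calcium-handling genes. Depth is known only approximately, so no counting intervals were set on single values.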
